A study of Rattus norvegicus with 72 samples.

Results

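The nuclear genes of the respiratory chain were followed in lung RNA of rats that had inhaled diesel exhaust particles. Members were chosen by gene symbol alone, as every row whose symbol begins with Ndufa, Ndufb, Ndufc, Ndufs, Ndufv, Uqcr, Cox4 to Cox8 or Atp5, or is Sdha, Sdhb, Sdhc or Sdhd. The rule found 96 of 30042 rows of the count table, and 93 of them had at least 1 count. There were 41 rows of complex I, 7 of complex I assembly factors (symbols starting with Ndufaf), 4 of complex II, 8 of complex III, 17 of complex IV and 15 of complex V. Complexes were assigned by symbol, which puts Ndufa4 and Ndufa4l2 in the counts of complex I whatever complex their proteins join. The other rows were 2 named as pseudogenes, and Atp5s and Atp5sl, which RefSeq now calls Dmac2l and Dmac2 and does not name as ATP synthase subunits.

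The 72 libraries came from 72 adult male Sprague-Dawley rats in 12 groups of 6. Rats breathed filtered air or diesel particle aerosol at 200 or 1000 ug/m3, for 6 hours on each of 4 days, and their lungs were taken 1, 7 or 27 days later. At each day there were 2 air groups. Titles mark them with the letters H and L, H also marking the 1000 ug/m3 animals and L the 200 ug/m3 animals, and they are called air H and air L here. Animal numbers of each H group fall in separate series, such as 001 to 004 with 025 and 026 in air H at day 1. Those of each L group form a single series, so letter and number series go together. What the letters or the number series stand for is not given in the sources used here. For exposure, 1000 ug/m3 was set against air H and 200 ug/m3 against air L of that day, which gave 6 comparisons with no shared animals. Comparing air H with air L asks how far 2 sets of unexposed rats differed. Among exposed animals the letter and the concentration cannot be told apart.

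The respiratory chain passes electrons from NADH through complex I, or from succinate through complex II, to ubiquinone, then through complex III and cytochrome c to complex IV, which reduces oxygen. Complexes I, III and IV pump protons across the inner mitochondrial membrane, and complex V, the ATP synthase, uses the gradient to make ATP. Most subunits are encoded in the nucleus and imported. In lung, mitochondria-rich cells include the surfactant-making type II cells, the club cells and the ciliated cells. Several complex IV subunits have tissue isoforms, among them Cox4i2, typical of lung, and Cox6a2, typical of heart and skeletal muscle.

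Total counts ranged from 1042336 to 2397971 at day 1, from 3471134 to 6279763 at day 7 and from 3761631 to 6520180 at day 27, apart from 3 libraries below 500000 counts. All 3 had inhaled 1000 ug/m3. Animal 037 at day 7 had 105453 counts, and animals 024 and 045 at day 27 had 439393 and 149004. Day 1 was thus less deep than the other days, and day and depth cannot be told apart. Levels are in CPM, the count per 1e6 counts of a library after TMM scaling. They are compared between groups and not between genes, since no transcript lengths were used. Markers of type I, type II and endothelial cells were detected in all 72 libraries. In whole tissue, fewer cells of a type and less RNA per cell cannot be told apart. The labels name separate animals for each library.

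Promoters are shown for 6 members that differed the same way between H and L sets in air and exposed rats at day 7, described below. The first group (Uqcrc2, Atp5a1, Atp5o) was higher in H and the second (Ndufb7, Ndufa9, Atp5j) lower, and members holding a searched motif were picked so that each motif is seen. Each stretch covers 250 bases before to 50 bases after the start of the RefSeq gene model in GRCr8, printed 5′ to 3′ on the strand of the gene. Capitals mark CCGGAAG (GABP), AAGATGGCG (YY1) and the NRF1 palindrome, which is the run of 10 capitals in Atp5o, or the same letters read on the other strand. These motifs share no overlap in the stretches shown. These factors are known regulators of respiratory chain genes.
Uqcrc2: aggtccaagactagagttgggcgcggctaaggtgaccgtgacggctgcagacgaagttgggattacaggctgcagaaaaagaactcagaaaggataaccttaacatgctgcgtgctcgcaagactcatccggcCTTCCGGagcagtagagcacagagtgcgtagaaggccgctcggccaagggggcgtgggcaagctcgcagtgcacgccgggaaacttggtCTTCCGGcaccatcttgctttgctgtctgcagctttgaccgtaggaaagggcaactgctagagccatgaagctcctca
Atp5a1: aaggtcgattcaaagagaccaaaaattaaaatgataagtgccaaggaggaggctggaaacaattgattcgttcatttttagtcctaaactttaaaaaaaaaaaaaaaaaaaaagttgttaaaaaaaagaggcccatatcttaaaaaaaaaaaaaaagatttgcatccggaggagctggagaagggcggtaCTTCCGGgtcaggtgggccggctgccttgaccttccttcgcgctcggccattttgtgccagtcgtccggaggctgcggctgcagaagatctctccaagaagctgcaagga
Atp5o: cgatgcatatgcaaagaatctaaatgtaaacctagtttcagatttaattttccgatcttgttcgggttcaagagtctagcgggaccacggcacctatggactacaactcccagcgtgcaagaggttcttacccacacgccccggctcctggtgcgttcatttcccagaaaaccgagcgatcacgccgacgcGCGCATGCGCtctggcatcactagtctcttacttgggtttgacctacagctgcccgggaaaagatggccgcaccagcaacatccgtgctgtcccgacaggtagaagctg
Ndufb7: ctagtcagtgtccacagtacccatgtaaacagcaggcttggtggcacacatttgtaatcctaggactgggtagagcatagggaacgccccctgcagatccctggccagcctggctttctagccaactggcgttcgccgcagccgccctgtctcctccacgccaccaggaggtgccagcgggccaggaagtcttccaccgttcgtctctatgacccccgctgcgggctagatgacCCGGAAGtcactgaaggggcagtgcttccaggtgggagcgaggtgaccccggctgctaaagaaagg
Ndufa9: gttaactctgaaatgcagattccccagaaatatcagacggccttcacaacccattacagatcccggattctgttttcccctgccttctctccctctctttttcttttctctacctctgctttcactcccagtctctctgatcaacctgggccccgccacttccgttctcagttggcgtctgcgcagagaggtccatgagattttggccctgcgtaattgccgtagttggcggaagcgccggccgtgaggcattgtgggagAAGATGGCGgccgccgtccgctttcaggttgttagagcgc
Atp5j: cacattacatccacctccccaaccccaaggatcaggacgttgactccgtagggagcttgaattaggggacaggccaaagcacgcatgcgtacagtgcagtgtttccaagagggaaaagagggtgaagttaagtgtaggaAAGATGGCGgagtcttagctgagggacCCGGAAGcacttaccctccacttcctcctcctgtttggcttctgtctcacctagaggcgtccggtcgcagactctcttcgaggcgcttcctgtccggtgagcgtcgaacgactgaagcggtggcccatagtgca
The stretches lie at chr1:184598990-184599289, plus strand (Uqcrc2), chr18:73567287-73567586, plus strand (Atp5a1), chr11:44657434-44657733, minus strand (Atp5o), chr19:41477242-41477541, minus strand (Ndufb7), chr4:161374121-161374420, minus strand (Ndufa9) and chr11:37375052-37375351, minus strand (Atp5j). The counts were made on Rnor_6.0 and carry no coordinates.

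A promoter was found for 80 members. The NRF1 letters were in 7.5% of these and in 0.932% of all 27457 RefSeq promoters. The GABP letters were in 25% against 9.22%, and the YY1 letters in 12.5% against 1.93%. Those 27457 promoters were not limited to genes tested here, while most members were tested, so the 2 sets were not matched for expression. At least 1 of the 3 motifs was in 40% of members and 11.5% of all promoters, while the median GC content was 56.7% and 52.3%. Both directions at day 7 held such letters. Of 18 promoters of members higher in H in both comparisons, 8 had at least 1 motif, and of 7 promoters of members lower in both, 4 had. The YY1 letters stood in 1 of the 18 and in 3 of the 7. A match is a description of the letters and not a shown binding site.

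Summed over members, the chain was at its highest in the H sets at day 7. The complex III sum was 450 to 514 CPM in air H at day 7 (median 471) and 390 to 424 CPM in air L (median 408), with no overlap. In the exposed animals of that day the sums were 449 to 537 CPM (median 493) at 1000 ug/m3 and 384 to 441 CPM (median 426) at 200 ug/m3, again without overlap. At day 27 the order turned, with 370 to 439 CPM in air H (median 382) and 419 to 464 CPM in air L (median 438).

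Between air H and air L at day 7 the sums of complexes V and I overlapped. The complex V sum was 1447 to 1613 CPM in air H and 1399 to 1517 CPM in air L at day 7, and at day 1 it was 1054 to 1340 CPM and 1248 to 1579 CPM, so that in air H the 2 days did not overlap. The complex I sum ranged from 1262 to 1415 CPM in air H and from 1218 to 1376 CPM in air L at day 7. For complex II the day 7 values were 367 to 424 CPM in air H and 333 to 389 CPM in air L.

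**Figure D1:**
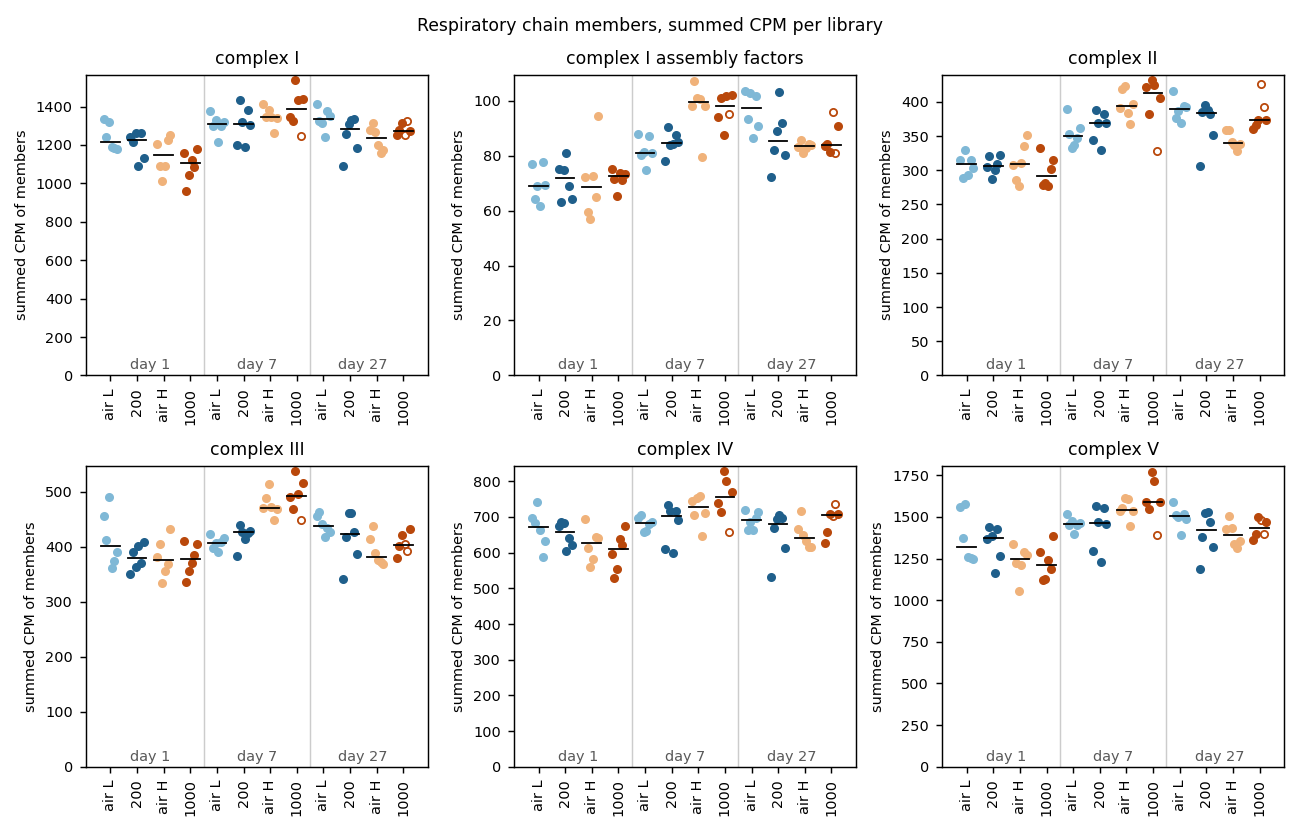
Summed CPM of the members of each complex in each library, by group and day, with a bar at the median of each group and open circles for the 3 libraries below 500000 counts. The complex III sums of the H sets (air H and 1000) at day 7 lie above those of the L sets, from 449 CPM upward against at most 441 CPM.

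After exposure, 0 members passed the test in any of the 6 comparisons, with edgeR's quasi-likelihood test, Benjamini-Hochberg adjustment over all tested genes and a threshold of 0.05. This was 0 of 82 tested members at day 1 and 0 of 87 at days 7 and 27. DESeq2 and limma-voom also called 0 members in each. The background was as low: 0% of the 12304 genes tested at day 1 passed at either concentration, 0% at 1000 and 0.00698% at 200 ug/m3 of 14331 at day 7, and 0% of 14761 at day 27 at either concentration.

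At an unadjusted p under 0.05 there were 3 members at 1000 and 1 at 200 ug/m3 at day 1 (3.41% and 6.02% of all tested genes), 3 and 3 at day 7 (4.39% and 5.71%), and 6 and 10 at day 27 (7% and 9.69%). The median log2 difference over members was -0.04 and -0.02 at day 1, 0.07 and 0.01 at day 7, and 0.06 and -0.09 at day 27, against 0.00 over all tested genes. At day 27 the signs leaned opposite ways: 66 of 87 members were positive at 1000 ug/m3 (50.4% of all tested genes) and 74 of 87 negative at 200 ug/m3 (49.7%). At 200 ug/m3 the sum over all members was 3552 CPM in animal 089 and 3967 CPM in animal 094. The other animals of that group were at 4219 to 4547 CPM, inside the air L range of 4202 to 4732 CPM. The 95% interval lay within a 1.5-fold change in either direction for 67 and 64 of 82 members at day 1, for 81 and 80 of 87 at day 7 and for 79 and 78 of 87 at day 27. Over all tested genes it did so for 9104 and 8939 of 12304, 11252 and 11484 of 14331, and 11224 and 11558 of 14761.

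By complex, the day 7 signs at 1000 ug/m3 were positive for 31 of 38 complex I members, 4 of 4 of complex II, 7 of 8 of complex III, 13 of 14 of complex IV and 12 of 14 of complex V, beside 49.8% of all tested genes. The medians of these complexes were between 0.05 and 0.10. At 200 ug/m3 and day 27 the negative members were 33 of 38, 4 of 4, 7 of 8, 11 of 14 and 12 of 14, with medians between -0.11 and -0.07. Members share libraries, and these sign counts have no test. At day 27 the ciliated cell marker sum moved the same way. It was 418 to 509 CPM at 1000 ug/m3 and 338 to 402 CPM in air H, without overlap. Its median was 376 CPM at 200 ug/m3 and 477 CPM in air L, with overlap. Most of this sum was Tppp3, with a median of 379 CPM over libraries, beside 26.5 CPM for Foxj1 and 24.8 CPM for Dnah5. The club cell sum had medians of 2348 CPM at 1000 ug/m3 and 2028 CPM in air H, and 2133 CPM at 200 ug/m3 and 2271 CPM in air L. The type II sum had lower medians at both concentrations. They were 13826.7 CPM at 1000 ug/m3 against 14050.5 CPM, and 13451.6 CPM at 200 ug/m3 against 14658.8 CPM. The club and type II sums overlapped in each comparison. These sums leave out the 3 shallow libraries. Their part in the members' signs was not tested.

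The members with the smallest p at 200 ug/m3 and day 27 were Ndufaf5, which hydroxylates a core subunit during complex I assembly, and Ndufs5, an accessory subunit. Ndufaf5 was at 6.31 to 9.73 CPM (median 7.92) in exposed rats and 10.1 to 12.8 CPM (median 11.9) in air L. Its log2 difference was -0.56 ± 0.13 (SE), with edgeR's adjusted p = 0.309, and the groups did not overlap. Ndufs5 was at 12.6 to 30.3 CPM (median 24.7) against 31.1 to 35.7 CPM (median 32.0). Its difference was -0.50 ± 0.14 (edgeR's adjusted p = 0.352), and all 6 exposed values lay below those of air L.

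At 1000 ug/m3 and day 27 the smallest p belonged to Sdha, the flavoprotein of complex II. It was at 188 to 209 CPM (median 192) in exposed rats and 164 to 184 CPM (median 176) in air H, a log2 difference of 0.16 ± 0.05 (edgeR's adjusted p = 0.592) with no overlap. Cox4i2 came next at 0.33 ± 0.13, with 20.3 to 31.2 CPM against 15.5 to 22.5 CPM. Neither passed.

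At day 7 the leading members at 1000 ug/m3 were Cox4i1, the general isoform of subunit 4 of complex IV, at 0.20 ± 0.06, and Cox6b2 at 0.72 ± 0.34. At 200 ug/m3 they were Uqcrh, the hinge protein of complex III, at 0.25 ± 0.08 and Ndufb11 at 0.24 ± 0.09. At day 1 they were Ndufa8 at -0.38 ± 0.14 and Ndufb3 at -0.46 ± 0.19 for 1000 ug/m3, and Ndufb2 at -0.50 ± 0.20 and Uqcr11 at -0.30 ± 0.16 for 200 ug/m3. None of these 8 passed, and the groups overlapped for each.

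The response to 1000 ug/m3 minus the response to 200 ug/m3 differed for 0 members at each day by edgeR, DESeq2 and limma-voom. All tested genes gave 0.00813% at day 1, 0% at day 7 and 0% at day 27. At day 27 the difference was positive in 74 of 87 members and 50.4% of all tested genes, with a median of 0.16 against 0.00 over all tested genes, and 20 members had an unadjusted p under 0.05 (13.3% of all tested genes did). It was 0.70 ± 0.21 for Ndufs5 (edgeR's adjusted p = 0.188) and 0.65 ± 0.19 for Ndufaf5 (edgeR's adjusted p = 0.171).

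**Figure D2:**
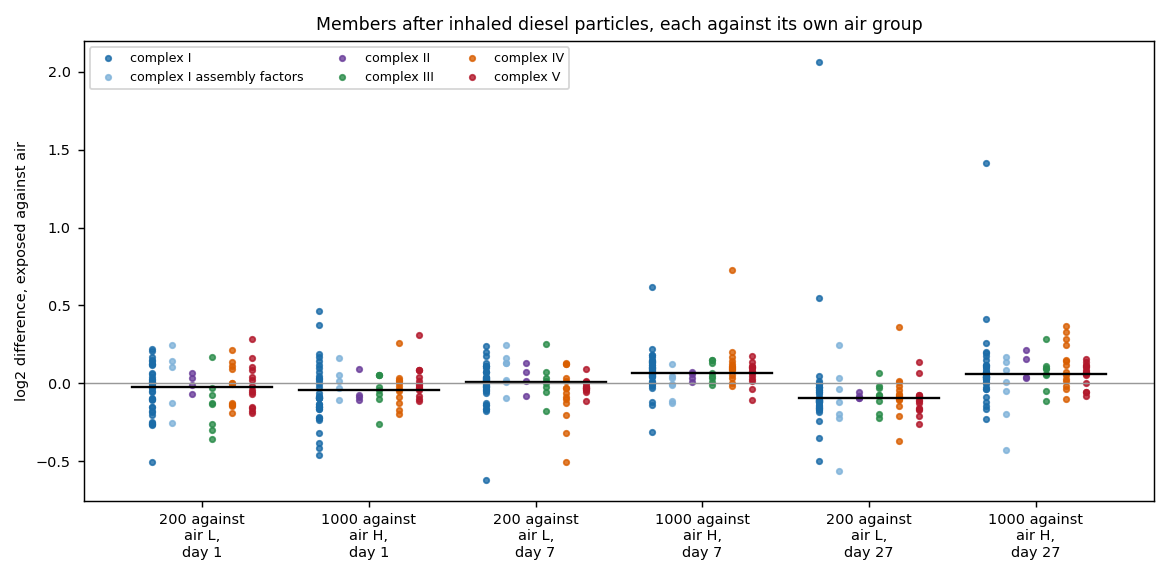
Log2 difference of each tested member of complexes I to V and of the complex I assembly factors, 1000 ug/m3 against air H and 200 ug/m3 against air L of each day, with a bar at the median over members. The medians lie between -0.09 and 0.07, and the far point at day 27 for 200 ug/m3 (2.07) is Ndufa1-2, whose SE is 1.36.

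Between the H and L sets the members differed at day 7, in air and in exposed rats. In air H against air L, 26 members were higher and 9 lower, which is 40.2% of 87 beside 25.5% of all 14331 tested genes. In 1000 against 200 ug/m3, 35 were higher and 9 lower, 50.6% beside 27.9%. All tested genes leaned the other way, with 10.3% higher and 15.2% lower in air, and 11.7% higher and 16.2% lower in exposed rats. The members' median log2 difference was 0.17 and 0.22, against 0.01 and 0.01 over all tested genes.

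These 2 comparisons share no libraries. In both, 28 members passed in the same direction, 20 higher and 8 lower, which is 80% of the calls in air and 63.6% of those in exposed rats. Over all tested genes the shares were 69.2% and 63.2%.

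The members higher in H were spread over the complexes, and their differences were small. In complex III 4 of 8 passed higher in air and 6 of 8 in exposed rats. The corresponding counts were 2 and 2 of 4 in complex II, 5 and 8 of 14 in complex V, 4 and 5 of 14 in complex IV, and 7 and 12 of 38 in complex I. Among complex I assembly factors 3 and 2 of 7 passed higher.

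Uqcrc2, a core protein of complex III, was at 110 to 139 CPM (median 119) in air H and 92.4 to 108 CPM (median 98.0) in air L at day 7. Its log2 difference was 0.30 ± 0.06 (edgeR's adjusted p = 0.000334), and each air H value lay above the air L values. In exposed rats it was 86.4 to 131 CPM (median 123) at 1000 and 91.1 to 106 CPM (median 103) at 200 ug/m3, a difference of 0.31 ± 0.06. The low value of 86.4 CPM was from animal 037, the library of 105453 counts. Its partner core protein Uqcrc1 differed by 0.34 ± 0.07 and 0.33 ± 0.08, and the Rieske iron-sulfur protein Uqcrfs1 by 0.25 ± 0.06 and 0.27 ± 0.06.

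Of the catalytic part of the ATP synthase, Atp5a1 (alpha subunit) was at 302 to 368 CPM (median 338) in air H and 271 to 302 CPM (median 279) in air L, with a difference of 0.25 ± 0.06 (edgeR's adjusted p = 0.00141). In exposed rats it was 322 to 372 CPM (median 359) and 249 to 307 CPM (median 271), and differed by 0.36 ± 0.06. The H and L values did not overlap in air or in exposed rats. Atp5c1 (gamma) differed by 0.28 ± 0.06 and 0.32 ± 0.06, Atp5e (epsilon) by 0.26 ± 0.08 and 0.43 ± 0.08, and Atp5o, which joins the catalytic part to the peripheral stalk, by 0.30 ± 0.07 and 0.30 ± 0.08. The other 2 subunits of the catalytic part did not pass: Atp5b (beta), the catalytic one, was at -0.02 ± 0.06 and 0.11 ± 0.06, and Atp5d (delta) at 0.05 ± 0.09 and 0.04 ± 0.10.

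In complex I the membrane-arm subunit Ndufc2 differed by 0.46 ± 0.11 in air and 0.40 ± 0.11 in exposed rats. It was at 46.6 to 64.9 CPM (median 50.2) in air H and 30.9 to 46.4 CPM (median 37.9) in air L. Ndufs8, a core iron-sulfur subunit, differed by 0.35 ± 0.11 and 0.46 ± 0.11. In complex II Sdha differed by 0.19 ± 0.06 and 0.17 ± 0.07 and its membrane anchor Sdhd by 0.24 ± 0.08 and 0.26 ± 0.08. In complex IV Cox7c differed by 0.27 ± 0.10 and 0.46 ± 0.10 and Cox6a1 by 0.22 ± 0.07 and 0.33 ± 0.08. Cox7a2l, which helps complexes III and IV form supercomplexes, differed by 0.28 ± 0.07 in both.

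Against this, 8 members were lower in H in both comparisons, with Ndufb7 the farthest. Ndufb7, an accessory subunit of the complex I membrane arm, was at 5.48 to 11.4 CPM (median 7.44) in air H and 21.7 to 29.8 CPM (median 26.4) in air L at day 7. Its log2 difference was -1.72 ± 0.18 (edgeR's adjusted p = 8.04e-09), lower in 6 of 6 air H libraries than any air L library. In exposed rats it was 4.95 to 12.3 CPM (median 8.75) at 1000 and 16.4 to 31.5 CPM (median 23) at 200 ug/m3, a difference of -1.41 ± 0.18 (edgeR's adjusted p = 6.92e-07). Those groups did not overlap either.

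Ndufa9, an accessory subunit where the complex I arms meet, was at 20.7 to 33.3 CPM (median 23.5) in air H and 41.6 to 46.7 CPM (median 44.0) in air L. It differed by -0.84 ± 0.11 in air and -0.81 ± 0.11 in exposed rats (edgeR's adjusted p = 3.21e-07 and 1.3e-06), with no overlap in either. Atp5j, coupling factor 6 of the ATP synthase peripheral stalk, was at 19.9 to 30.4 CPM (median 22.5) and 33.9 to 42.5 CPM (median 38.8). It differed by -0.72 ± 0.12 and -0.81 ± 0.13. Ndufa4l2, a paralog of Ndufa4 known as a hypoxia-induced gene, differed by -0.99 ± 0.18 and -0.76 ± 0.19, while Ndufa4 itself was higher, at 0.28 ± 0.07 and 0.39 ± 0.08.

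The remaining members lower in both were Uqcrb of complex III (-0.73 ± 0.14 and -0.72 ± 0.14), Ndufb10 of complex I (-0.61 ± 0.09 and -0.52 ± 0.09), Atp5j2 (subunit f, -0.55 ± 0.10 and -0.39 ± 0.10) and Atp5g3 (-0.36 ± 0.09 and -0.34 ± 0.09). Atp5g3 is a gene of the ATP synthase c subunit, which is also encoded by Atp5g1 and Atp5g2. In exposed rats those 2 were higher, at 0.36 ± 0.14 (edgeR's adjusted p = 0.0488) and 0.33 ± 0.10. In air they were at 0.14 ± 0.13 and 0.20 ± 0.10 and did not pass. Thus subunits of 1 complex differed in opposite directions in complexes I, III and V. Reads of pseudogenes may be shared with some of these genes: RefSeq names 4 pseudogenes of Atp5j, 3 of Atp5j2, 2 of Uqcrb and 1 of Ndufb10, and 0 of Ndufb7, Ndufa9, Ndufa4l2 and Atp5g3. Of the 96 members, 42 have at least 1.

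**Figure D3:**
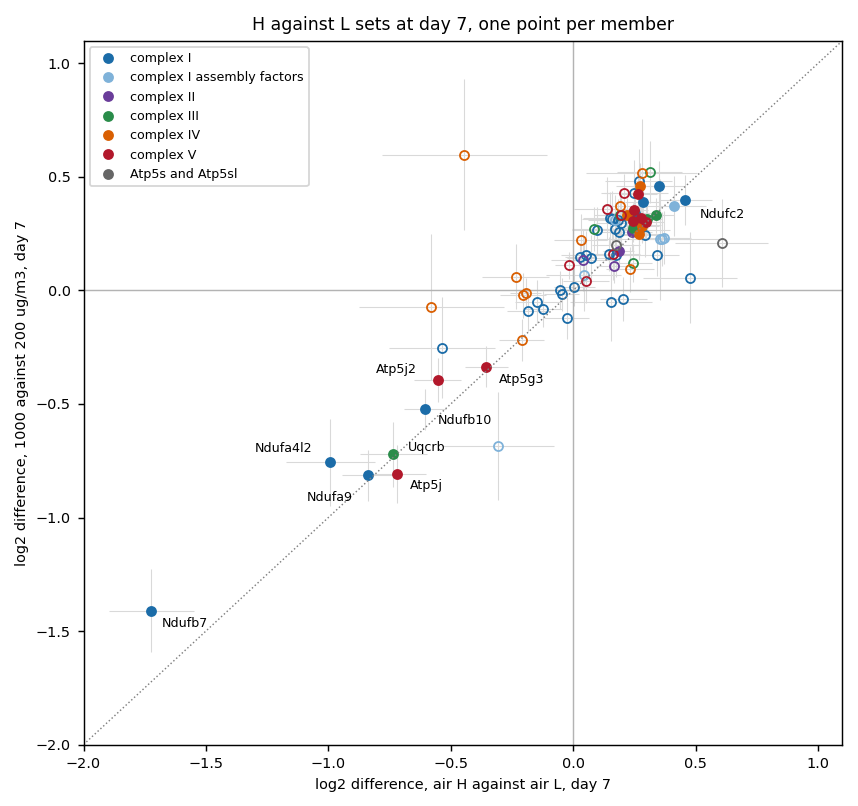
Log2 difference of 86 members in air H against air L (horizontal) and in 1000 against 200 ug/m3 (vertical) at day 7, with SE bars, filled where the member passed in both. Ndufb7 lies farthest out at -1.72 and -1.41, and most filled points cluster near 0.3 on both axes; Ndufa1-2 was left out for its SE.

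Markers of other lung cells moved between the same groups. At day 7 the summed level of 3 endothelial markers (Pecam1, Cdh5 and Vwf) was 1730 to 2144 CPM in air H and 2161 to 2519 CPM in air L, and 1731 to 2145 CPM at 1000 and 2147 to 2520 CPM at 200 ug/m3. The sum of 5 type I markers was 2690 to 2954 CPM in air H and 3146 to 3530 CPM in air L, without overlap, and overlapped in exposed rats. The sum of 3 red cell genes was 798 to 1870 CPM and 652 to 1019 CPM in air, and 932 to 1382 CPM and 496 to 924 CPM in exposed rats. The sum of 5 type II markers overlapped in air, at 13095 to 16330 CPM (median 14994) and 12960 to 17685 CPM (median 15826). In exposed rats it overlapped as well, with 13646 to 18490 CPM (median 17635) at 1000 and 13071 to 19737 CPM (median 13923) at 200 ug/m3. The sum of 3 club cell markers was 1060 to 1646 CPM (median 1153) in air H and 1551 to 2465 CPM (median 1953) in air L, and had medians of 1590 CPM at 1000 and 1822 CPM at 200 ug/m3. The sum of 3 ciliated cell markers was 379 to 504 CPM (median 455) in air H and 329 to 445 CPM (median 409) in air L. In exposed rats the ciliated sums did not overlap, with 438.4 to 579 CPM at 1000 and 312 to 438.0 CPM at 200 ug/m3. By median level over libraries, the club cell sum was mostly Scgb1a1 (2020 CPM), the red cell sum Hbb (793 CPM) and the ciliated sum Tppp3 (379 CPM). Marker sums leave out the 3 libraries below 500000 counts. Their part in the members' differences was not tested.

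Other lists around the chain were read beside the members at day 7, when 25.5% of all tested genes passed in air and 27.9% in exposed rats. The genes of the cytosolic ribosome had 35 higher and 12 lower of 88 in air and 45 and 9 in exposed rats, with medians of 0.20 and 0.26. Those of the mitochondrial ribosome had 12 and 5 of 68, and 15 and 2, with medians of 0.14 and 0.14. Their totals were close to the background, but more were higher than lower. All tested genes leaned lower, with 10.3% higher and 15.2% lower in air, and 11.7% and 16.2% in exposed rats. The enzymes of the citric acid cycle had 3 higher and 4 lower of 14, and 5 and 4. Among 13 genes of the electron carriers, 4 were higher and 1 lower in air, and 5 and 1 in exposed rats. Coq2 and Coq6 of ubiquinone synthesis differed by 0.30 ± 0.08 and 0.39 ± 0.11 in air, and Etfb, the beta subunit of electron transfer flavoprotein, by -0.52 ± 0.10, while its partner Etfa differed by 0.28 ± 0.07.

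Of 11 tested regulators 2 were higher and 2 lower in air H than air L, and 2 higher and 4 lower at 1000 than at 200 ug/m3. Against the air groups of that day, 0 regulators passed at either concentration. The coactivators known to drive mitochondrial genes were lower at 1000 than at 200 ug/m3: Ppargc1a by -1.02 ± 0.22, Ppargc1b by -1.0 ± 0.22 and Pprc1 by -0.48 ± 0.09. In air Ppargc1b (-0.59 ± 0.22) and Pprc1 (-0.26 ± 0.08) passed, and Ppargc1a, at -0.30 ± 0.20, did not. Nrf1 and Esrra, transcription factors of respiratory genes, were higher at 1000 than at 200 ug/m3, by 0.20 ± 0.06 and 0.48 ± 0.13. In air they were 0.14 ± 0.06 and 0.22 ± 0.13 and did not pass. The regulators higher in air H than air L were Tfb1m (0.40 ± 0.12), a mitochondrial ribosomal RNA methyltransferase, and Yy1 (0.18 ± 0.07). The other regulator lower at 1000 than at 200 ug/m3 was Gabpb1 (-0.29 ± 0.09). Of 7 tested genes in the hypoxia list, 2 were higher and 1 lower in air H than air L, and 1 and 1 at 1000 than at 200 ug/m3. Bnip3, a mitophagy receptor, was higher in both, by 0.46 ± 0.11 and 0.30 ± 0.11, and Vegfa in air, by 0.19 ± 0.05. Epas1, the hypoxia-inducible factor abundant in lung endothelium, was lower in both, by -0.82 ± 0.11 and -0.96 ± 0.12. The endothelial marker sums were lower in the same groups, and their part in the Epas1 difference was not tested.

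At day 1 fewer members passed between the H and L sets. In air 2 of 82 members were lower in H and 0 higher, 2.44% beside 1.68% of all tested genes (0.829% higher and 0.853% lower). The count was 4 with DESeq2, 11 in the fit of all 72 libraries and 1 with the filter of 1 CPM in 6 libraries. The shares of all tested genes under these alternatives are not given here. At an unadjusted p under 0.05 there were 19 members, beside 19.8% of all tested genes, and the median over members was -0.12. The 2 members that passed were Uqcr11 of complex III at -0.71 ± 0.17 (edgeR's adjusted p = 0.0308) and Ndufa6 of complex I at -0.55 ± 0.15 (edgeR's adjusted p = 0.0484). Uqcr11 was at 25.6 to 42.8 CPM (median 30.0) in air H and 28.1 to 68.8 CPM (median 54.3) in air L, and the groups overlapped. In exposed rats 0 members passed with edgeR, DESeq2 or limma-voom, and 13 had an unadjusted p under 0.05. Of all tested genes 0% passed there and 12.5% had such a p.

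At day 27 air H and air L differed the other way. There 4 members were higher in H and 14 lower, 20.7% of 87 beside 14% of all 14761 tested genes, of which 8.92% were higher and 5.11% lower. The median over members was -0.16, and 70 of 87 were negative, beside 51% of all tested genes. With no filter on low counts, 11 members passed in place of 18, and the share of all tested genes under that setting is not given here. Lower in air H were Ndufb4 (-0.31 ± 0.07), Sdha (-0.20 ± 0.05), Atp5l (-0.30 ± 0.07), Cox6c (-0.29 ± 0.07) and Ndufs5 (-0.47 ± 0.14), each without overlap of the groups. Between the same groups the ciliated marker sum was 338 to 402 CPM in air H and 425 to 539 CPM in air L, and the sum of 6 pericyte markers 590 to 675 CPM and 463 to 556 CPM, both without overlap. Their part was not tested.

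The 4 members higher in air H at day 27 were all among the 8 that had been lower in H at day 7. Of all tested genes, 1691 were lower in both day 7 comparisons and 1317 were higher in air H at day 27. Their overlap was not counted, so such a turn is not shown to be particular to the members. Ndufb7 was at 19.8 to 26.5 CPM (median 23.5) in air H and 10.8 to 18.6 CPM (median 13.6) in air L, a difference of 0.70 ± 0.14 (edgeR's adjusted p = 0.00168) without overlap. Ndufa4l2 was at 6.90 to 9.37 CPM (median 8.34) and 1.72 to 4.56 CPM (median 4.05), a difference of 1.14 ± 0.21 (edgeR's adjusted p = 0.000784) without overlap. Ndufa9 differed by 0.35 ± 0.09 and Atp5g3 by 0.32 ± 0.08. In 1000 against 200 ug/m3 at day 27, 0 members passed with edgeR, DESeq2 or limma-voom, beside 0% of all tested genes, and 6 had an unadjusted p under 0.05 (7.36% of all). Ndufb7 stood there at 12.5 to 22.3 CPM and 8.17 to 16.8 CPM, and Ndufa4l2 at 2.90 to 12.5 CPM and 4.99 to 5.84 CPM.

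The change of the air H minus air L difference between days was tested directly, in 1 fit of the 36 air libraries. From day 1 to day 7 it rose in 27 members and fell in 9, 41.4% beside 20.9% of all tested genes (8.87% rising and 12.1% falling). From day 7 to day 27 it rose in 10 and fell in 41, 58.6% beside 32.6% (18% and 14.6%). The largest single change was that of Ndufb7, -1.47 ± 0.22 and then 2.42 ± 0.19. Both steps use the day 7 libraries, as do the H and L comparisons of that day and the comparisons of days below, so their values are given side by side and count as no independent support of each other.

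**Figure D4:**
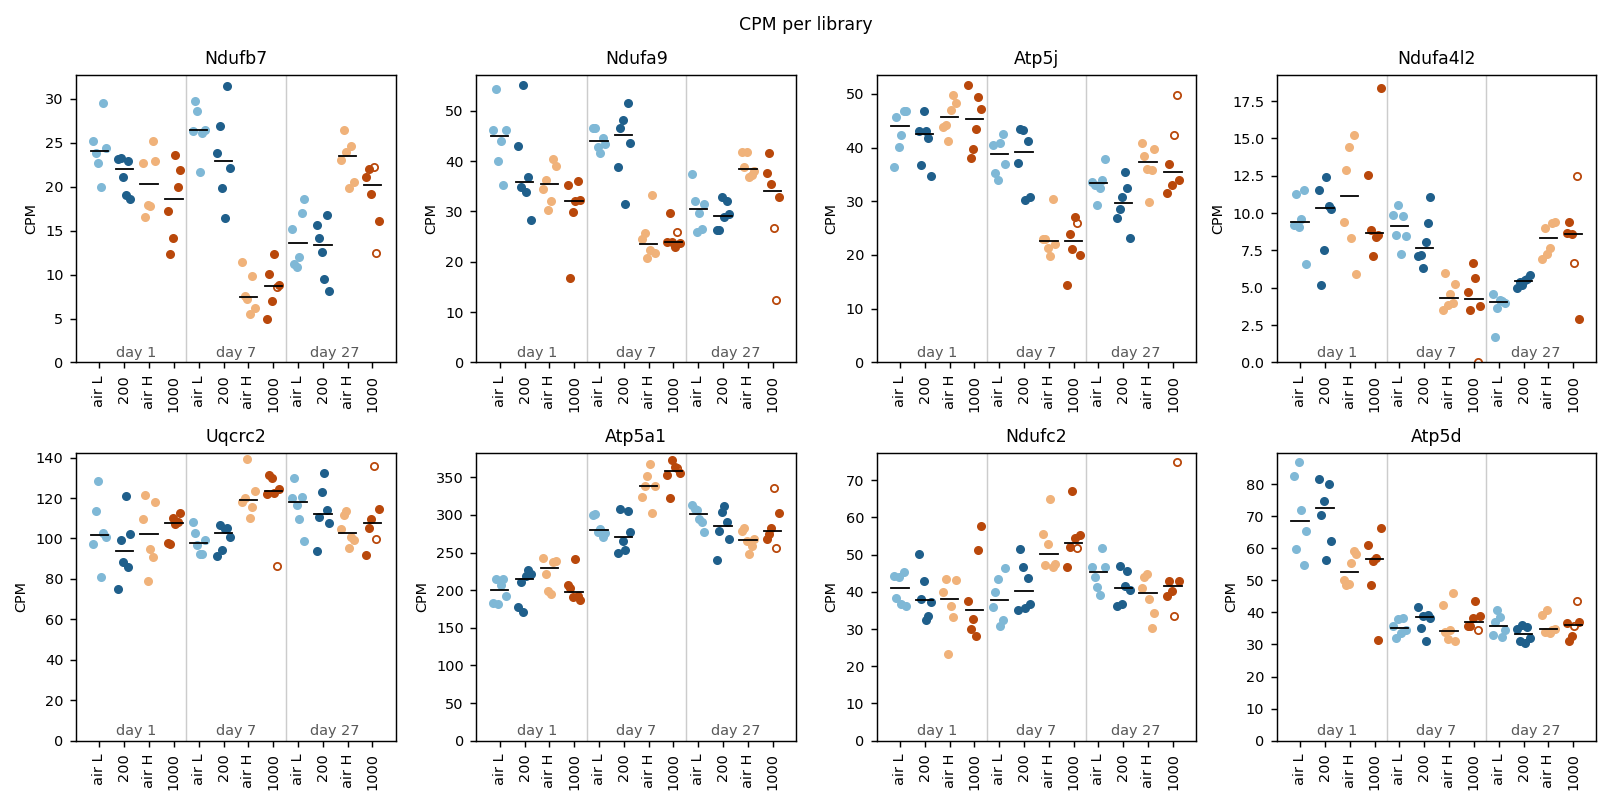
CPM of 8 members in each library by group and day, with a bar at the median and open circles for the 3 libraries below 500000 counts. Ndufb7, Ndufa9, Atp5j and Ndufa4l2 are low in the H sets at day 7 (Ndufb7 at most 12.3 CPM there against at least 16.4 CPM in the L sets), while Uqcrc2, Atp5a1 and Ndufc2 have their highest group medians there.

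Over days, more members passed in the H sets than in the L sets. From day 1 to day 7 air H had 48 members higher and 10 lower of 87 (66.7% beside 38.8% of all tested genes), and 1000 ug/m3 had 53 and 7 (69% beside 36.5%). Air L had 18 and 6 (27.6% beside 16.3%), and 200 ug/m3 had 10 and 1 (12.6% beside 10.3%). The medians were 0.34, 0.48, 0.09 and 0.14. All tested genes had 18.8% higher and 20% lower in air H, 18.3% and 18.2% at 1000 ug/m3, 7.73% and 8.54% in air L, and 4.43% and 5.88% at 200 ug/m3. Depth rose between these days in every set. The type II marker sum had medians of 11918 CPM at day 1 and 14994 CPM at day 7 in air H, 11620 and 17635 CPM at 1000 ug/m3, 11822 and 15826 CPM in air L, and 11101 and 13923 CPM at 200 ug/m3. The club cell sum went from 3186 to 1153 CPM, from 3282 to 1590 CPM, from 3252 to 1953 CPM and from 3483 to 1822 CPM in the same order. Their part in the members' changes was not tested.

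Atp5a1 was higher at day 7 than at day 1 in each of the 4 sets, by 0.61 ± 0.06 in air H, 0.82 ± 0.08 at 1000 ug/m3, 0.50 ± 0.06 in air L and 0.43 ± 0.08 at 200 ug/m3, without overlap in any. In air L it was 182 to 216 CPM (median 200) at day 1 and 271 to 302 CPM (median 279) at day 7. Atp5g1, a c subunit gene, was higher by 0.94 ± 0.13, 0.99 ± 0.19, 1.09 ± 0.14 and 0.68 ± 0.18 in the same order, and Cox7c by 0.89 ± 0.10, 0.74 ± 0.15, 0.36 ± 0.10 and 0.45 ± 0.14.

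Atp5d, the delta subunit in the same catalytic part of the ATP synthase as Atp5a1, went down in each set, by -0.54 ± 0.10, -0.46 ± 0.12, -1.0 ± 0.10 and -0.93 ± 0.10. In air L it was 54.7 to 86.9 CPM (median 68.6) at day 1 and 32.2 to 38.3 CPM (median 35.1) at day 7, and at day 27 it was still at 32.4 to 40.8 CPM (median 35.8). Uqcrb and Atp5j were lower at day 7 in the H sets, by -1.45 ± 0.15 and -0.98 ± 0.10 in air H. In air L they were at -0.29 ± 0.15 and -0.17 ± 0.10 and did not pass.

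From day 7 to day 27 air H had 10 members higher and 37 lower (54% beside 29.9%), with 7 of 8 complex III members lower and Uqcrb higher. The 1000 ug/m3 group had 4 and 17 (24.1% beside 13.6%), air L 12 and 7 (21.8% beside 19.6%) and 200 ug/m3 0 and 3 (3.45% beside 2.87%). With limma-voom 33 members passed at 1000 ug/m3 in place of 21, and in the fit of all 72 libraries 6 passed at 200 ug/m3 in place of 3. The shares of all tested genes under these alternatives are not given here. In the main fits all tested genes had 16.8% higher and 13.2% lower in air H, 8.21% and 5.34% at 1000 ug/m3, 8.07% and 11.5% in air L, and 0.674% and 2.2% at 200 ug/m3. In air H Atp5a1 was lower by -0.34 ± 0.05 and Ndufb7 higher by 1.52 ± 0.14, and in air L Ndufb7 was lower by -0.90 ± 0.13 and Ndufa4l2 by -1.27 ± 0.19. In the 200 ug/m3 group the 3 members lower were Ndufb7 (-0.84 ± 0.16), Ndufa9 (-0.54 ± 0.12) and Atp5j2 (-0.39 ± 0.10).

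**Figure D5:**
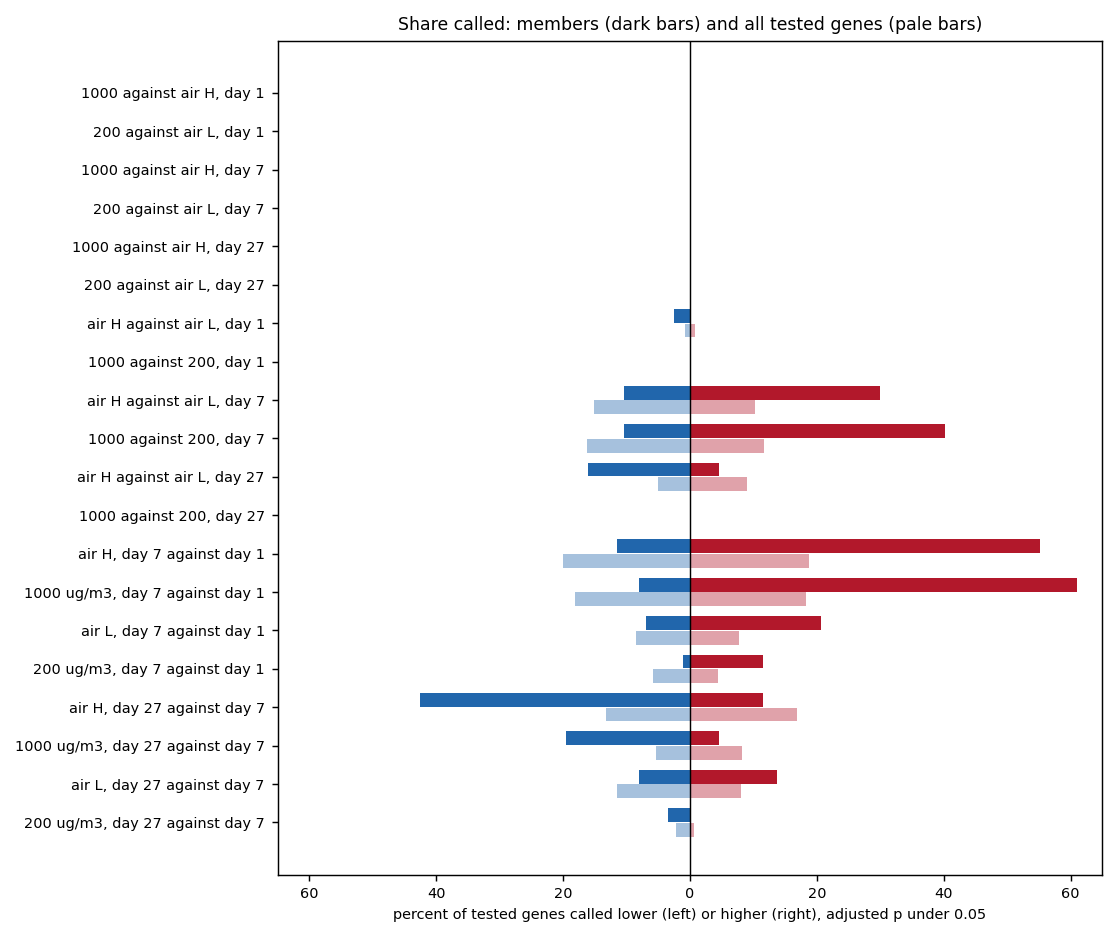
Percent of tested genes called higher (right) or lower (left) at an adjusted p under 0.05 in 20 comparisons, for the members (dark bars) and for all tested genes (pale bars). The exposure comparisons have no bar for members, and the dark bars to the right are longest for day 7 against day 1 in the H sets (53 of 87 members at 1000 ug/m3).

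Of the tissue isoforms, the lung isoform Cox4i2 was present beside Cox4i1 in every group, at group medians from 15.3 CPM (air L, day 27) to 30.1 CPM (air H, day 1). It was lower at day 27 than at day 7 in air L, by -0.73 ± 0.14 (edgeR's adjusted p = 0.000175), with 12.5 to 19.5 CPM against 20.4 to 31.1 CPM. Cox4i1 was lower in air H than air L at day 7 by -0.19 ± 0.06 and at -0.01 ± 0.06 in exposed rats, where it did not pass. Among partners of Cox6a1, the muscle isoform Cox6a2 had group medians from 0.308 to 1.42 CPM and was not tested. Cox8b, the muscle partner of Cox8a, had group medians from 1.58 to 3.87 CPM. The testis isoforms Cox7b2 and Cox8c were at 0 counts in all 72 libraries, and Cox6b2, also known from testis, at group medians from 1.62 to 3.54 CPM.

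Cox6a2 was summed to 218 counts in the 72 libraries, which limits any reading of it. Over 69 libraries of at least 500000 counts, with group means removed, the genes most like it in log2(CPM + 0.5) were Tnni3 (Pearson r 0.66, Spearman rho 0.65), Actc1 (0.65, 0.64), Mybpc3 (0.64, 0.63), Ldb3 (0.64, 0.67) and Actn2 (0.64, 0.63), out of 15421 genes compared. Without the 2 libraries farthest from the median of Cox6a2, r with Tnni3 was 0.65. Tnni3, Actc1 and Mybpc3 are cardiac muscle genes. The summed level of the cardiac marker list ranged from 15.5 to 290 CPM over libraries, with the atrial hormone gene Nppa at 0 in all, and its part in Cox6a2 was not tested. The closest genes to Cox4i2 (Lrrc3, 0.57), Cox8b (Fgf10, 0.57) and Ndufa4l2 (Prr14, 0.56) were less close. These are the best of many genes and carry no test.

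Some members were almost without reads. Ndufs6, a subunit gene of complex I, had 20 counts in all 72 libraries, Ndufa1 26, Ndufb1-2 27 and Atp5f1 151. The pseudogene row Cox6c-ps1 had 0 counts and Ndufv3-ps1 had 209. These rows were not tested, so the counts of members above do not speak of them.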

How the data were processed

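The values are raw read counts per gene symbol of 72 libraries, in a table the authors deposited, and 0 of its per-sample columns were left unused. Per the submitters' processing notes, the tools were HTSeq 0.6.1, HISAT2 2.1.0, Trimmomatic 0.35, bcl2fastq 2.19 and SAMtools 1.8, named without their roles, and the build was Rnor_6.0. Libraries came from a stranded total RNA kit after ribosomal RNA depletion, per the labels' protocols. The strand setting of the counting is not given in the sources used here, so reads of antisense or overlapping genes, and of near-identical copies, are uncertain. Counts of PCR-amplified reads are not independent molecules, and depth limits the rows of few counts.

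Groups came from the titles and characteristics. The test was edgeR's (4.0.16, under R 4.3.3) robust quasi-likelihood fit after TMM scaling and filterByExpr on the groups, at a Benjamini-Hochberg adjusted p of 0.05 over all tested genes. Exposure and H against L contrasts came from 1 fit per day, with 24 libraries. Days were compared in a fit of the 36 air libraries and another of the 36 exposed libraries. In all 25 contrasts were taken. SE values derive from the F statistic, and intervals are 95% intervals. CPM are counts per 1e6 with TMM factors over 72 libraries.

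The members and the lists were chosen with earlier results of these data known. Genes named were the called members with the smallest adjusted p per comparison, up to 8 in each direction, of which some are described, or the 2 smallest p where none was called, and the isoform pairs of complex IV. A part of that rule that needed coding lengths was not applied, since no lengths were used. Cox6b1 and Cox7a1 were not analysed here. Names of 77 members matched RefSeq (GRCr8) by symbol and 17 by synonym, and 2 did not match (Ndufa1-2 and Ndufb1-2). Promoters are from RefSeq. Alternatives were DESeq2 1.42.0, limma-voom (limma 3.58.1), RLE in place of TMM, unscaled libraries, no filter or 1 CPM in 6 libraries as the filter, 1 fit of all 72 libraries, fits without the 3 libraries below 500000 counts, and a block for the series of animal numbers in 1000 ug/m3 against air H.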

Additional observations from a re-analysis of the deposited data

Results flagged for a closer look

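In 72 groups of complex sums tested for a library standing far from the others, 1 did: animal 033 of air H at day 7, whose complex I assembly factors summed to 79.7 CPM beside 98.1 CPM in the nearest library. Chance flags about 1 in 20 groups.

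The difference of air H minus air L changed between days, by a test of that change, for 36 members at the first step and 51 at the next (edgeR, adjusted p under 0.05). This was 41.4% and 58.6% of tested members, beside 20.9% and 32.6% of all tested genes. The 8 members with the smallest adjusted p in each direction are given. From day 1 to day 7 the difference rose by 0.81 for Uqcrc1, 1.20 for Atp5e, 0.89 for Ndufa6, 0.90 for Ndufs7, 0.79 for Uqcr11, 0.51 for Cox6a1, 0.47 for Ndufv1 and 0.66 for Ndufb8 on the log2 scale. It changed by -1.47 for Ndufb7, -0.80 for Atp5j, -1.17 for Uqcrb, -0.63 for Atp5j2, -0.86 for Ndufb10, -1.16 for Ndufa4l2, -0.48 for Atp5g3 and -0.51 for Ndufa9.

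From day 7 to day 27 these 8 members changed back, by 2.42 for Ndufb7, 1.18 for Ndufa9, 2.12 for Ndufa4l2, 0.85 for Atp5j, 0.67 for Atp5g3, 1.09 for Uqcrb, 0.56 for Atp5j2 and 0.73 for Ndufb10. The difference changed by -0.58 for Uqcrh, -0.42 for Atp5a1, -0.39 for Sdha, -0.52 for Cox6c, -0.49 for Atp5c1, -0.51 for Atp5l, -0.68 for Ndufc2 and -0.53 for Uqcrc1. The 2 steps share the day 7 libraries.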

How the results depend on the processing

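No paired analysis was possible because the labels share no replicate number between groups. Most counts of members called stayed within 1.5 times under each alternative. For air H against air L at day 1, where 2 members passed, 1 passed with the filter of 1 CPM in 6 libraries, 4 with DESeq2 and 11 in the fit of all 72 libraries. For the same comparison at day 27, where 18 passed, 11 passed with no filter. For day 27 against day 7, limma-voom gave 33 in place of 21 at 1000 ug/m3, and the fit of all 72 libraries gave 6 in place of 3 at 200 ug/m3. The cause was not tested. Exposure calls were 0 under every alternative run, and without the 3 shallow libraries the day 7 counts were 39 in air and 47 in exposed rats in place of 35 and 44. The shares of all tested genes under the alternatives are not given here, so these counts do not show whether members moved more than other genes. Of 3333 values of named members under alternatives, 32 no longer passed, 13 newly passed and none that passed changed direction. Day 1 depth, at most 2397971 counts, and the rows near 0 counts limit what could be detected. The libraries of fewer than 500000 counts lie in the 1000 ug/m3 groups alone.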

Other observations

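Ndufa1-2, a row with the name of a complex I subunit that RefSeq does not match, fell into separate levels between animals, a pattern chosen after its values were seen. Of 69 libraries of at least 500000 counts, 36 were at 0.757 CPM or below, 23 of them at 0, and 33 were between 3.80 and 25.4 CPM, with none between. Both levels occurred in each of the 12 groups. At day 7, 5 of 6 air L libraries and 2 of 6 air H libraries were at the higher level, and at day 27 it was 1 of 6 and 2 of 6. The SE of its log2 difference was at least 0.989 in each of the 25 contrasts, and it passed in none of them by edgeR.

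Atp5e, the epsilon subunit of the ATP synthase, followed other genes closely across animals, which was also noticed after its values were seen. Over 69 libraries with group means removed, the genes most like it were Akr1a1 (Pearson r 0.84, Spearman rho 0.73), Rps3 (0.83, 0.72), Rmrp (0.83, 0.61) and Rpl13a (0.83, 0.73), of which Rps3 and Rpl13a encode ribosomal proteins. Akap12 ran opposite, with r -0.82. Without the 2 libraries farthest from its median, r with Akr1a1 was 0.78.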
